A study of Mus musculus with 8 samples.

Results

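The small leucine-rich proteoglycans examined here were 10 genes, Dcn, Lum, Bgn, Fmod, Ogn, Prelp, Aspn, Omd, Kera and Podn, chosen by gene symbol among the 32285 genes that the count matrices list. Their transcripts were counted in cells of the periosteum, the connective tissue sheath of bone, of male C57BL/6J mice, freed from left femurs and tibias with collagenase and dispase and profiled as single cells with 10X Chromium 3′ chemistry. The control group ate normal diet (ND) chow and the other high-fat diet (HFD) chow, in which fat supplied 60% of calories, in both groups starting at 4 weeks of age and lasting 12 weeks, so that cells were taken at 16 weeks. The labels list 4 mice per diet, but the deposited counts are 1 pooled library per diet in which no cell is assigned to a mouse. Both groups shared strain, sex, age, bones and digestion, so that diet is the only labelled difference and library and diet cannot be told apart. Every HFD against ND value below therefore compares 2 libraries without a test, and each interval is an exact 95% interval for counting error alone.

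Small leucine-rich proteoglycans are secreted proteins with a curved domain of leucine-rich repeats that lies on collagen fibrils and sets their diameter and spacing. Many carry chondroitin, dermatan or keratan sulfate chains, and several bind growth factors such as TGFβ. They are abundant in tendon, skin, cartilage, bone and the cornea, and periosteum, which joins tendon and ligament to bone, contains the cells that lay down this matrix.

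After filtering (more than 500 and fewer than 8000 detected genes, under 20% mitochondrial UMIs) 6029 ND and 6224 HFD cells remained, with medians of 4610 and 4823.5 UMIs per cell. A UMI (unique molecular identifier) stands for 1 captured RNA molecule. The cells were clustered without the 10 genes and their relatives, so that the levels below were not what defined a class, and clusters were named from marker lists with "-like" added. Blood cells dominated the digest, with 39.9% (ND) and 39.1% (HFD) neutrophil-like and 28.5% and 26.1% B cell-like cells, and mesenchymal-like cells, the class with the markers of periosteal stroma (Pdgfra, Pdgfrb, Prrx1, Col1a1, Col1a2, Col3a1 and Cdh11), were 411 in ND (6.82%) and 678 in HFD (10.9%). A level is given as UMIs of a gene per 1000000 UMIs of the class (UPM). The 3′ chemistry reads the end of a transcript and counts a molecule once whatever its length, so that levels of different genes are compared without a length correction, although capture may differ between transcripts. Of the kept barcodes, 14 sequences occurred in both libraries.

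The family belonged to the mesenchymal-like cells. Of all UMIs of the 10 genes in named classes, 96.8% (96.7 to 96.9) lay in these cells in ND and 96.62% (96.53 to 96.69) in HFD, although they made up a small part of the digest. For single genes the share ranged from 95.22% (Bgn) to 98.28% (Fmod) in ND and from 94.24% (Kera, 131 UMIs in these cells) to 97.02% (Dcn) in HFD. Summed over the family, mesenchymal-like cells stood at 24280 UPM in ND and 27440 UPM in HFD, whereas B cell-like cells, not known as a source of the family, stood at 61.69 and 94.29 UPM. The level in B cell-like cells serves as the background of free RNA here, and it was higher in the HFD library.

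**Figure D1:**
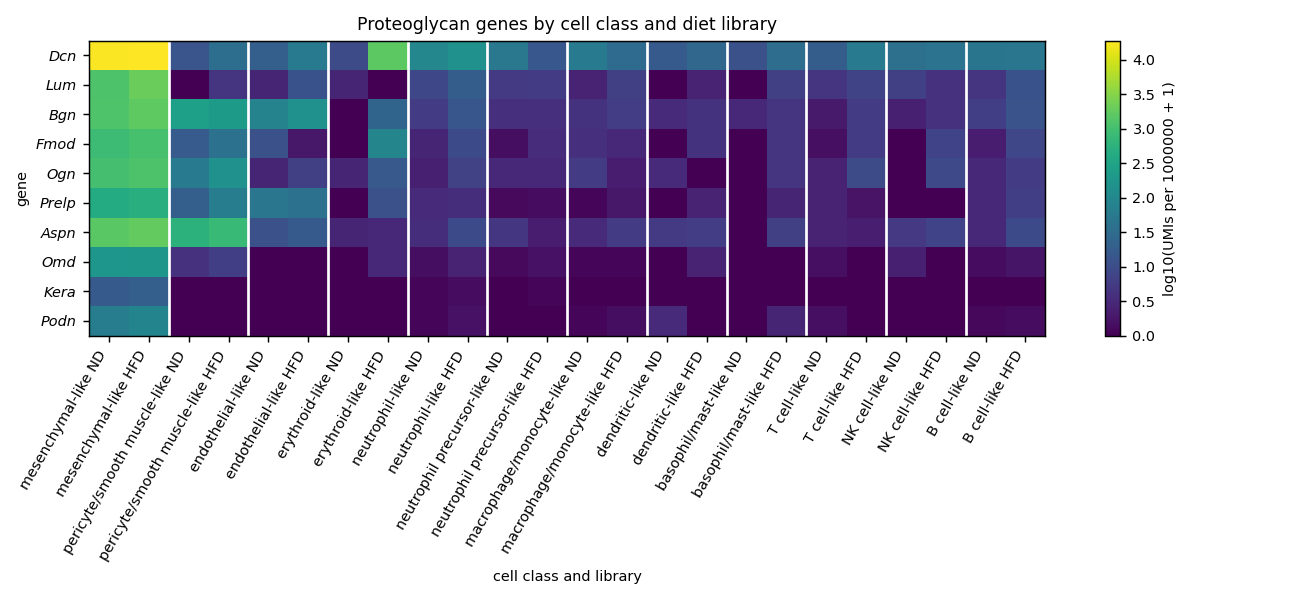
Level of each gene (rows) in each cell class and diet library (columns), as log10 of UMIs per 1000000 plus 1, so that the darkest cells are at 0. The mesenchymal-like columns are brightest for all 10 genes, and Aspn and Bgn are also visible in pericyte/smooth muscle-like cells.

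Dcn, which encodes decorin, the family member that decorates collagen fibrils with a chondroitin or dermatan sulfate chain, was by far the most abundant. It held 84831 UMIs in ND mesenchymal-like cells (17727 UPM) and 132166 in HFD cells (18927 UPM), and in both libraries it ranked 2 among all genes of the class. The next in order in ND were Aspn with 1524 UPM, Bgn with 1240 UPM and Lum with 1220 UPM. Bgn (1209 to 1272) and Lum (1189 to 1251) had overlapping intervals in ND and could not be ordered. Ogn (1038 UPM), Fmod (845 UPM) and Prelp (431 UPM) followed, then Omd (179 UPM), Podn (64.4 UPM) and Kera (15 UPM). In HFD the order was Dcn, Lum (2025 UPM), Aspn (1788 UPM), Bgn (1672 UPM), Ogn (1212 UPM), Fmod (1060 UPM), Prelp (471 UPM), Omd (180 UPM), Podn (83.3 UPM) and Kera (18.8 UPM), with no overlap between neighbours. Lum thus stood below Aspn in ND and above it in HFD, and the other genes kept their order relative to each other.

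Detection followed the levels. A Dcn UMI was found in 407 of 411 ND and 668 of 678 HFD mesenchymal-like cells. Since cells differ in depth, each cell was also thinned to 1000 UMIs, which left out 7 HFD mesenchymal-like cells. On that footing Dcn was detected in 95.9% of ND and 96.4% of HFD mesenchymal-like cells, against 2.92% and 5.99% of B cell-like cells. Without thinning, the medians behind such shares were 10632 (ND) and 9487.5 (HFD) UMIs in mesenchymal-like cells and 3762 and 3746 in B cell-like cells. Thinned shares for Lum were 38.7% (34.0 to 43.6) in ND and 53.1% (49.2 to 56.9) in HFD, whereas those of Ogn, 49.6% and 48.4%, and of Prelp, 30.4% and 29.5%, lay within each other's intervals. Unthinned, Lum was detected in 68.4% and 76.1% of mesenchymal-like cells. A thinned cell held a median of 4 of the 10 members in both libraries, and 81.5% of ND and 82.6% of HFD mesenchymal-like cells held at least 3.

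Outside the stroma, Aspn stood out in the pericyte/smooth muscle-like cells, the contractile cells of vessel walls, of which there were 32 in ND and 59 in HFD. Aspn encodes asporin, a member with a run of aspartate residues that binds collagen and TGFβ and carries no sulfated chain. It reached 570 UPM in ND (182 UMIs) and 767 UPM in HFD (432 UMIs) there, compared with 1.98 and 8.29 UPM in B cell-like cells. Aspn made up 60.7% and 60.4% of the family's UMIs in these cells, while Dcn made up 1.33% and 2.66%, the reverse of the stroma. Bgn (260 and 211 UPM) and Ogn (59.5 and 146 UPM) were the next in order, and Lum was listed with 0 UMIs in ND and 2 in HFD. A count of 0 in 319492 UMIs allows up to 3 UMIs.

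In endothelial-like cells (118 ND, 231 HFD) the family was led by Bgn with 79.4 and 147 UPM. Prelp came next in ND with 46.6 UPM, whereas in HFD Dcn (55.8 UPM) stood before Prelp (38.7 UPM). Bgn encodes biglycan, the X-linked relative of decorin, and Prelp encodes a member whose basic end binds heparan sulfate of basement membranes. The levels of Bgn and Prelp lay above those of B cell-like cells (5.33 and 11.4 UPM for Bgn, 1.98 and 5.15 UPM for Prelp). The ratio of Bgn to Dcn differed from that of free RNA, with Bgn at 46.9% and 53.6% of the family's UMIs in endothelial-like cells and at 8.63% and 12.1% in B cell-like cells. Single cells decided some values in blood cell classes. The Dcn level of 1612 UPM in HFD erythroid-like cells came from 1 cell that held 766 of 771 Dcn UMIs, and in ND B cell-like cells 1 cell held 196 of 365 Dcn UMIs.

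Within the stroma the 10 genes were highest in different subclasses. Mesenchymal-like cells were clustered again without the family. Subclusters with the markers of Pi16 fibroblasts (91 ND, 108 HFD cells), Col15a1 fibroblasts (55, 112), osteoblasts (a pair of subclusters, 56, 129) and chondrocytes (8, 15) were named after them, although Ibsp, a bone matrix gene, led the last. Dmp1 and Ifitm5 passed as markers in 1 osteoblast-like subcluster (60 cells) and not in the other (125 cells). Over both libraries osteoblast-like cells also held Postn (5060 UPM), Tnn (860 UPM), Cthrc1 (258 UPM) and Runx2 (181 UPM), markers of Postn osteogenic cells. Fbn2 and Limch1 of that list were low there (0.624 and 9.98 UPM). Levels below were not split between the pair. In chondrocyte-like cells Ibsp stood at 11000 UPM, against 5480 UPM in osteoblast-like cells. Acan, Col2a1, Snorc, Sox9 and Hapln1 passed as chondrocyte markers, while Cnmd, Matn3 and Col9a1 did not. Of 2 subclusters with tenocyte markers, the larger was led by H19 (88, 122) and the other was smaller (14, 54). The H19-led one was named from Scx, Tnmd, Mkx and Cpxm2, while Chodl, Thbs4 and Col11a1 did not pass. Over both libraries Scx (128 UPM) was near osteoblast-like cells (120 UPM). Tnmd and Cpxm2 (175 and 204 UPM) were near the cells led by Inmt (146 and 224 UPM), and Mkx (46.8 UPM) was above both. No tenocyte marker was among its 10 leading genes, so its name is a weak one. In ND the smaller one also held neutrophil markers at 60400 UPM. Unnamed subclusters were led by Inmt (39, 42), by Prg4 (6, 14), by Hmcn2 with B cell genes (21, 51) and by Cstdc4 with neutrophil genes (33, 31). The summed level of the 8 neutrophil markers, all of them detected in both libraries, was 17700 UPM in ND and 8250 UPM in HFD mesenchymal-like cells, and 4270 and 2850 UPM without the Hmcn2-led and Cstdc4-led cells. Statements on the order of subclasses below leave out the Hmcn2-led and Cstdc4-led cells unless they are named. The ratios of Lum and Kera without both of these subclusters are given with the diet comparison.

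**Figure D2:**
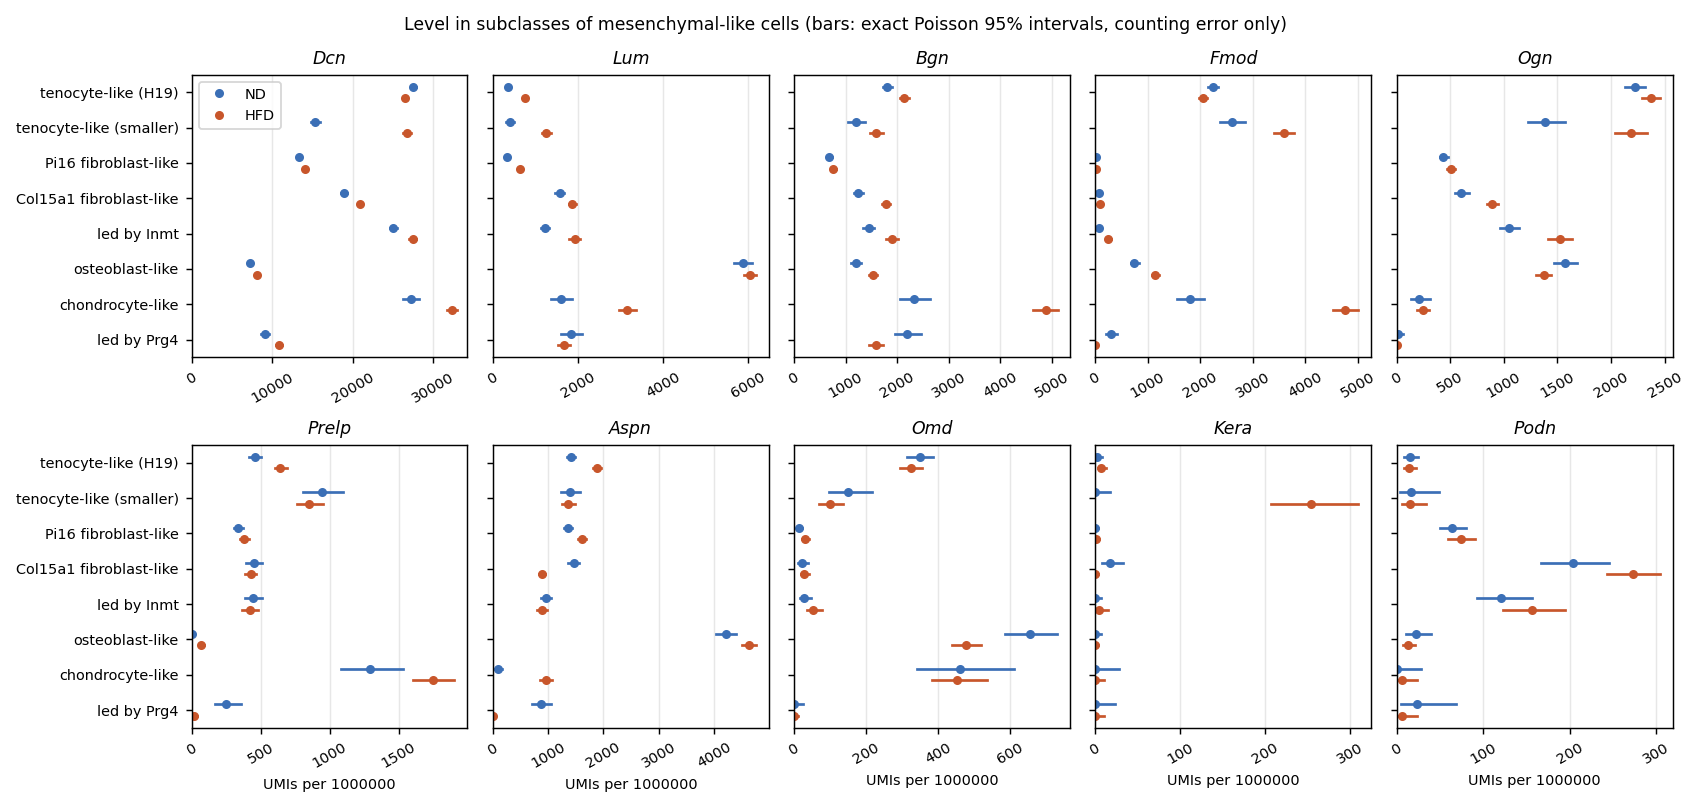
Level of each gene (panels, x axis in UMIs per 1000000, starting at 0) in 8 subclasses of mesenchymal-like cells (rows), with the ND library in blue and the HFD library in orange and exact Poisson 95% intervals as bars. Dcn is lowest in osteoblast-like cells, where Lum and Aspn are highest, and Podn peaks in Col15a1 fibroblast-like cells.

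Dcn was high throughout but not uniform. It was 27557 UPM (27230 to 27890) in H19 tenocyte-like cells in ND and 26489 UPM (26210 to 26770) in HFD, and 25063 and 27475 UPM in the Inmt-led cells. Osteoblast-like cells had the lowest levels of any named subclass, 7283 UPM in ND and 8154 UPM in HFD. The Prg4-led cells, few in number and led by the gene of the joint lubricant lubricin, were also low with 9095 and 10916 UPM. Dcn made up 33.8% and 34.8% of the family's UMIs in osteoblast-like cells, against 80.6% and 77.9% in Pi16 fibroblast-like cells.

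The few chondrocyte-like cells had 27252 UPM of Dcn in ND and 32340 UPM in HFD. The cells of the smaller tenocyte-like subcluster differed most between the libraries, with 15397 and 26769 UPM, and this is the subclass whose 14 ND cells carried neutrophil transcripts, whose part in the result was not tested. Cells of a subclass also differed among themselves. In H19 tenocyte-like cells the tenth to the ninetieth percentile of Dcn ran from 72.0 to 512 UMIs per 10000 UMIs of a cell in ND, around a median of 242, and from 78.4 to 521 around 241 in HFD.

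Bgn, the relative of Dcn with the same kind of chains, varied less between subclasses than the other members below. Of the 8 subclasses plotted, Pi16 fibroblast-like cells had the lowest level in ND with 678 UPM (631.5 to 726.1). The Hmcn2-led cells, not plotted, had 556 UPM (377.5 to 788.6) on 31 UMIs, which overlaps it. Bgn stood at 1205 UPM in osteoblast-like, 1247 UPM in Col15a1 fibroblast-like and 1447 UPM in Inmt-led cells. The osteoblast-like and Col15a1 fibroblast-like values had overlapping intervals. H19 tenocyte-like cells had 1810 UPM, and the chondrocyte-like cells had the highest value, 2330 UPM. In HFD Pi16 fibroblast-like cells were again lowest (756 UPM) and chondrocyte-like cells highest (4877 UPM). The latter are 15 cells, 1 of which held 449 of their 1524 Bgn UMIs, and their neutrophil markers stood at 566 UPM in ND and 12200 UPM in HFD, whose part in the result was not tested. All 8 subclasses held Bgn, and after thinning it was found in 36.3% to 100% of their cells in ND and in 41.7% to 93.3% in HFD.

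Lum and Aspn had their highest levels in the osteoblast-like cells. Lum encodes lumican, a keratan sulfate proteoglycan that organises collagen fibrils. Its level was 5868 UPM (5656 to 6085) in ND and 6040 UPM (5897 to 6187) in HFD osteoblast-like cells. It was 333 and 631 UPM in Pi16 fibroblast-like cells and 359 and 764 UPM in H19 tenocyte-like cells, and these neighbours could not be ordered in ND. Osteoblast-like cells contributed 49.6% of all mesenchymal Lum UMIs in ND and 47.4% in HFD from 10.3% and 15.9% of the UMIs. Aspn was 4207 UPM in ND and 4623 UPM in HFD osteoblast-like cells, and at or under 1876 UPM in all other subclasses and libraries. Osteoblast-like cells contributed 28.5% of mesenchymal Aspn UMIs in ND and 41.1% in HFD. Unthinned, an Aspn UMI was found in 49 of 56 ND and 101 of 129 HFD osteoblast-like cells. For H19 tenocyte-like cells it was 84 of 88 and 117 of 122. The highest HFD osteoblast-like cell held 753 of 5127 Aspn UMIs and the second 625. After thinning, a Lum UMI was found in 94.6% and 91.3% of osteoblast-like cells.

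**Figure D3:**
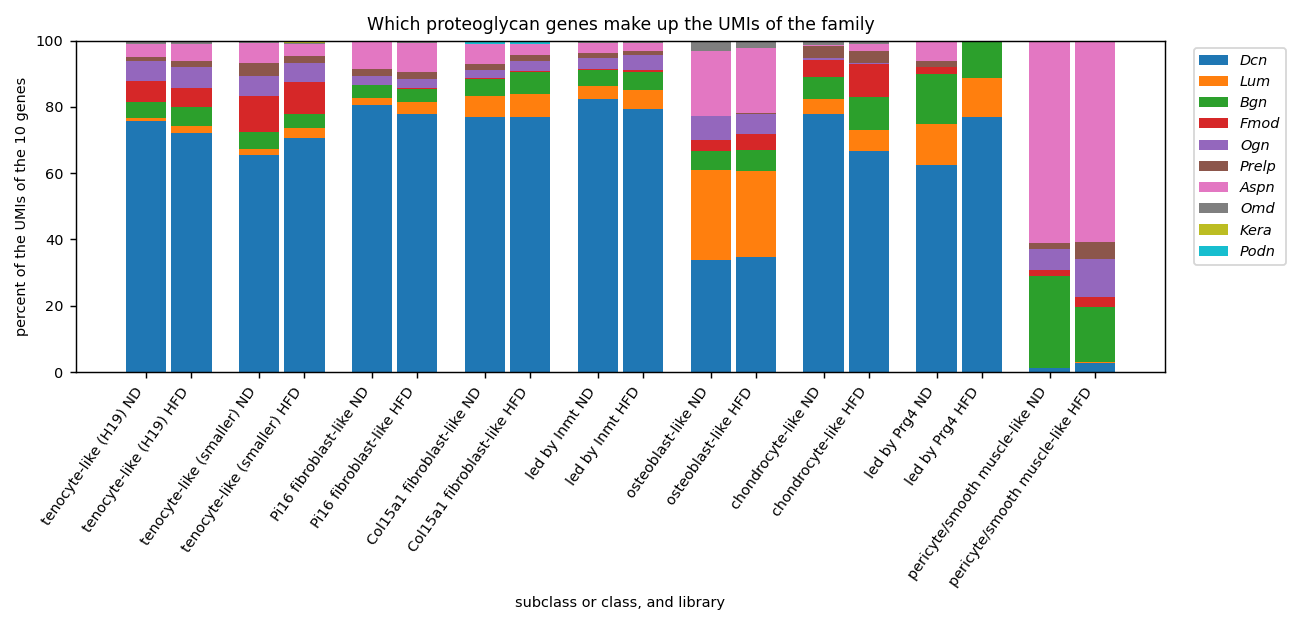
Share of each gene among the UMIs of the 10 genes (stacked bars, percent, each adding up to 100) in subclasses of mesenchymal-like cells and in pericyte/smooth muscle-like cells, in ND and HFD. Osteoblast-like bars hold 27.2% and 25.8% Lum and 19.5% and 19.7% Aspn, and the pericyte/smooth muscle-like bars are mostly Aspn.

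Fmod, Ogn and Omd were shared by tenocyte-like and osteoblast-like cells, each with its own order. Fmod and Omd were also found in the few chondrocyte-like cells. Fmod encodes fibromodulin, a keratan sulfate member known from tendon and cartilage. In ND it reached 2241 UPM in H19 tenocyte-like, 2603 UPM in the smaller tenocyte-like subcluster and 1802 UPM in chondrocyte-like cells, and in HFD 2055, 3588 and 4758 UPM. Osteoblast-like cells held 743 and 1136 UPM of Fmod, whereas Pi16 fibroblast-like cells held 1 Fmod UMI in ND and 12 in HFD (0.844 and 9.43 UPM). The HFD value is near the 7.03 UPM of B cell-like cells. After thinning, Fmod was found in 68.9% of HFD H19 tenocyte-like cells, with an overlapping interval in ND, in 28.6% and 39.4% of osteoblast-like cells, and in none of the Pi16 fibroblast-like cells, which allows shares of up to 3.97% and 3.36% by the exact interval. H19 tenocyte-like cells contributed 55.2% of mesenchymal Fmod UMIs in ND and 36.9% in HFD.

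Ogn encodes osteoglycin, also called mimecan, first described from bone. It was highest in H19 tenocyte-like cells in ND with 2222 UPM. In HFD these cells had 2369 UPM and the smaller tenocyte-like subcluster 2183 UPM, with overlapping intervals, so that they could not be ordered. In ND osteoblast-like cells had 1572 UPM, with an interval that overlapped that of the smaller tenocyte-like subcluster. Ogn was lowest in the Prg4-led cells, with 2 UMIs in ND and 1 in HFD. Omd encodes osteomodulin, or osteoadherin, a keratan sulfate member of mineralised tissue that binds cells and mineral. Its level was 656 UPM in ND and 479 UPM in HFD osteoblast-like cells and 349 and 325 UPM in H19 tenocyte-like cells. Pi16 fibroblast-like (13.5 and 29.9 UPM) and Col15a1 fibroblast-like cells (22.4 and 28.7 UPM) had little Omd. Osteoblast-like and H19 tenocyte-like cells together held most of the gene, 37.9% and 40.7% of its mesenchymal UMIs in ND and 42.2% and 34.4% in HFD. The few chondrocyte-like cells held 5.73% of them in ND and 11.3% in HFD, from 2.22% and 4.48% of the UMIs of all genes. Relative to their UMIs this was more than in H19 tenocyte-like cells, although in ND 1 cell held 44 of the 49 Omd UMIs.

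Prelp was nearly absent from the osteoblast-like cells in which Lum and Aspn were highest. In chondrocyte-like cells it was 1292 UPM in ND and 1750 UPM in HFD, and in fibroblast-like and tenocyte-like cells it lay between 339 and 945 UPM. In osteoblast-like cells only 3 Prelp UMIs were counted in ND (6.08 UPM) and 79 in HFD (71.2 UPM), of which 1 cell held 52. The Prg4-led cells held 32 Prelp UMIs of 126996 in ND, 27 of them in 1 cell, and 5 of 303787 in HFD. In HFD their level was thus below that of osteoblast-like cells. Podn, which encodes podocan, a member first described in kidney and vessel walls, was highest in Col15a1 fibroblast-like cells and was among the leading genes of that subcluster, although it took no part in the clustering. These held 204 UPM in ND and 273 UPM in HFD, or 35.4% and 55.5% of all mesenchymal Podn UMIs. The Inmt-led cells held 121 and 156 UPM, the Hmcn2-led cells 179 UPM (85.94 to 329.6) in ND on 10 UMIs and 70.3 UPM in HFD, and H19 tenocyte-like cells held 15.1 and 14.3 UPM.

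Kera encodes keratocan, the keratan sulfate member best known from the cornea, and it was confined to very few cells. Only 4 ND and 13 HFD mesenchymal-like cells had a Kera UMI, with 72 and 131 UMIs in all. In HFD 98 of these UMIs lay in 7 of the 54 cells of the smaller tenocyte-like subcluster (254 UPM, 206.5 to 310.0). In ND 59 of the 72 UMIs came from a single cell, which lay in the subcluster led by Cstdc4 and neutrophil genes, and the 14 ND cells of that tenocyte-like subcluster held none. In osteoblast-like cells Kera was at 0 in both libraries, in 493733 and 1109032 UMIs.

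Across 15 profiles, each a subclass in a library with at least 20 cells and the mixed subclusters included, Omd and Aspn had the most similar levels among the members (Pearson's r = 0.77 on log2 of UPM plus 10), as had Bgn and Ogn (r = 0.77), followed by Dcn with Prelp (r = 0.74). Omd and Podn were the most dissimilar (r = -0.82). Prelp ran against Aspn (r = -0.72) and Lum (r = -0.70). These profiles share libraries, free RNA and depth, and the values are a description. Among all genes with at least 200 UMIs, the profile most like that of Omd was Shox2, a limb homeobox gene (r = 0.98), and those most like Podn were Ifi207 and Plau, the gene of urokinase (r = 0.93 each). Wnt5b and Tmem167 were most like Aspn (r = 0.92 each), Ccdc47 most like Ogn (r = 0.92), Twist2, a transcription factor of dermal and mesenchymal cells, most like Dcn (r = 0.90), and Rrbp1, which anchors ribosomes at the endoplasmic reticulum, most like Lum (r = 0.88). Prrx2 (Bgn, r = 0.89), Ecrg4 (Fmod, r = 0.88), Plpp3 (Prelp, r = 0.87) and Col22a1, a collagen of tissue junctions (Kera, r = 0.79), completed the list.

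Aspn, Omd and Ogn lie next to each other on chromosome 13. On GRCm38.p6, the assembly of RefSeq that shares its coordinates with mm10, Aspn lies at chr13:49544443-49567565, Omd at chr13:49582462-49592612 and Ogn at chr13:49608015-49624501, all on the plus strand, with Ecm2, a further leucine-rich repeat gene, upstream at chr13:49504810-49532789. Over the 15 profiles r was 0.77 for Aspn with Omd, 0.68 for Omd with Ogn and 0.37 for Aspn with Ogn. Dcn, Lum and Kera lie close together on chromosome 10, where Dcn and Lum had r = -0.38 and Lum and Kera r = -0.26. Prelp and Fmod, both in one stretch of chromosome 1, had r = -0.05. Pairs on different chromosomes ran from r = -0.82 (Omd with Podn) to r = 0.77 (Bgn with Ogn). Whether nearness on the chromosome goes with a similar profile was not tested, and the values of Kera rest on very few cells.

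RefSeq promoter sequences were matched for 8 of the 10 members, all but Dcn and Lum. The 250 bases before the start of the 3 chromosome 13 neighbours are printed because their levels can be compared as neighbours. The window of Bgn is printed as an example rich in G and C, although the first Podn window was richer, at 78.0%. Each is the plus strand, 5′ to 3′. Capitals mark matches on either strand to TATAAA (the TATA box), GGGCGG (the GC box) and TGTGGT (a RUNX motif), which may overlap.
Aspn, chr13:49544193-49544442: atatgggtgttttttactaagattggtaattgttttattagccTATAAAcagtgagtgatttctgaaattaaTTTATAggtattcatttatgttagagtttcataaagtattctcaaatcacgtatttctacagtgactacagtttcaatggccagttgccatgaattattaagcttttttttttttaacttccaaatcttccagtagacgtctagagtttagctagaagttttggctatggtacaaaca
Omd, chr13:49582212-49582461: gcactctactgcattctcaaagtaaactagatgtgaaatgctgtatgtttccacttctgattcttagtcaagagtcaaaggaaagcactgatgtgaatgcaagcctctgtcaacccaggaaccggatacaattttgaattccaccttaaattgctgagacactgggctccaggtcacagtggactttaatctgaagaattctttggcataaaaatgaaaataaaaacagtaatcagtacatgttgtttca
Ogn, chr13:49607765-49608014: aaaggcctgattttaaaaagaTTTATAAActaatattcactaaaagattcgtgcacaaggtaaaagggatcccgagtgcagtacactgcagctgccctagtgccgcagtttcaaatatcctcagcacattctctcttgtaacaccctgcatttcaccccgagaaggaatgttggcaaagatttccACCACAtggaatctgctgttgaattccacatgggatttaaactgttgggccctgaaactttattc
Bgn, chrX:73483351-73483600: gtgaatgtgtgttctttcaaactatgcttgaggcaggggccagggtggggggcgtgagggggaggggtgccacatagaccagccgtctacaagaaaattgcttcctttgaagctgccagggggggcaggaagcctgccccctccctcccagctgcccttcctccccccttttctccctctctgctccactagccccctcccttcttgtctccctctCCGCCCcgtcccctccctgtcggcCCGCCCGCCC

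The windows of the 3 neighbours were poor in G and C, with 30.0% for Aspn, 38.4% for Omd and 42.0% for Ogn, against 64.4% for Bgn and a median of 52.4% over 32851 promoter windows. Aspn held 2 TATA box matches, Ogn 2 overlapping ones and 1 RUNX match, Omd none of the 3 motifs and Bgn 3 GC box matches. Counted from the start, the TATA box matches began at -207 and -178 in Aspn and at -229 and -227 in Ogn. Over all windows 12.4% held the TATA box letters, 32.7% the GC box letters and 14.0% the RUNX letters. These are matches of letters in a window and do not say that a factor binds there.

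The comparison of HFD with ND asks how the family differed between the diets in the same cells. In mesenchymal-like cells all 10 members passed the minimum of 50 UMIs. All 10 had a ratio above 1, 8 of them with an interval that excluded 1. The shares of all genes with such ratios and intervals were not computed, so that these counts have no background. Lum was the only member past 1.5-fold, the rule used in place of a test. In the same cells 5.52% of 10799 genes were past 1.5-fold higher in HFD and 4.02% past 1.5-fold lower, so that 1 of 10 higher and 0 of 10 lower is near this background. The median log2 ratio of the members was 0.27, against 0.051 for all genes. Kera, within the rule at 1.24-fold (0.928 to 1.69), passed it at 5.21-fold once the cell of the most Kera UMIs in each library was left out, since 1 cell held 59 of its 72 ND UMIs. It was also past the rule without the Hmcn2-led and Cstdc4-led cells, with a log2 ratio of 2.62. Bgn followed Lum with 1.35-fold (1.31 to 1.39), Podn with 1.29-fold (1.13 to 1.49) and Fmod with a log2 ratio of 0.33. With each cell thinned to 1000 UMIs the log2 ratio was 0.20 for Bgn, against 0.43 without thinning. For Podn it was 0.13 against 0.37, and for Fmod 0.42 against 0.33. With the same weights for the subclasses in both libraries the log2 ratio of Fmod was 0.19. Within H19 tenocyte-like cells Fmod was at 0.917-fold (0.867 to 0.97). Omd, at 1.01-fold (0.923 to 1.1), had almost the same level in both libraries.

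Lum had 5837 UMIs in ND (1220 UPM) and 14142 in HFD (2025 UPM), a 1.66-fold difference (1.61 to 1.71). Osteoblast-like cells, where Lum is highest, were 56 of 411 ND and 129 of 678 HFD mesenchymal-like cells. With the same weights for the subclasses in both libraries the ratio was 1.27-fold and no longer past 1.5-fold. The ratio was thus smaller with the makeup of the class held fixed, and the cause of the class difference was not tested. Without the Hmcn2-led and Cstdc4-led cells the log2 ratio of Lum was 0.66, against 0.73 with them.

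**Figure D4:**
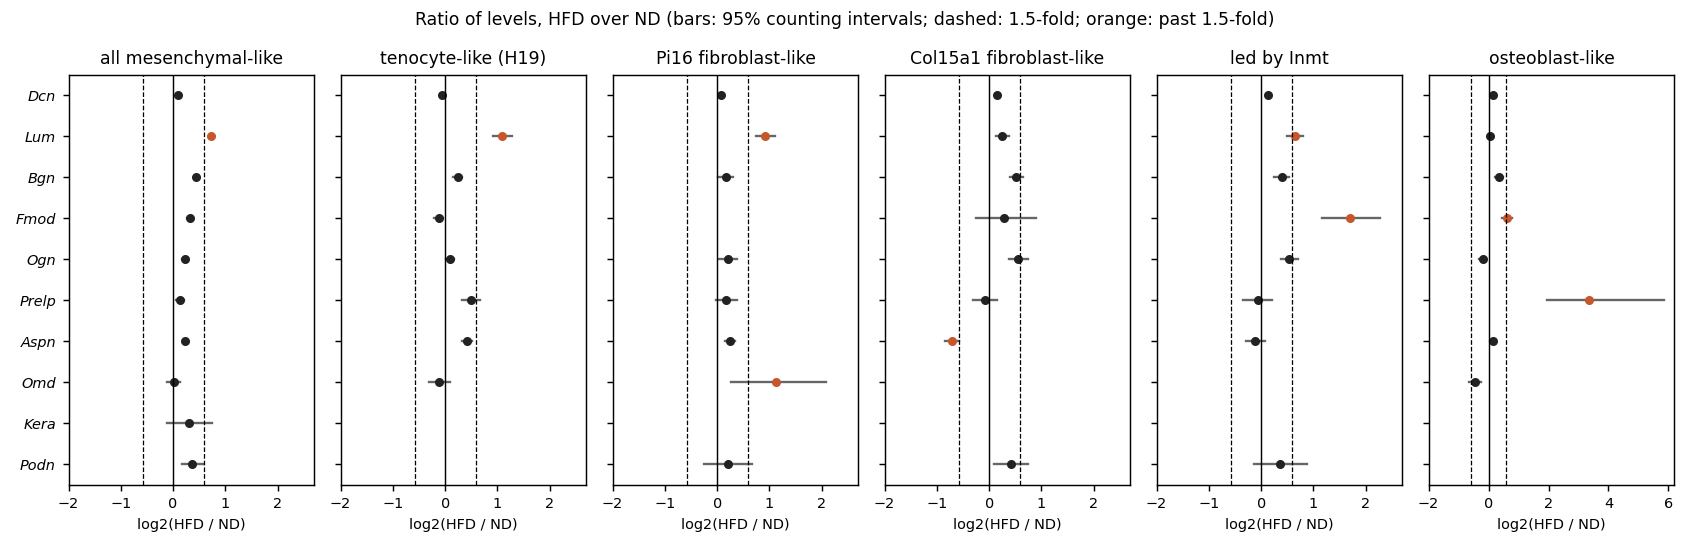
Log2 ratio of the level in HFD over ND for each gene with at least 50 UMIs, over all mesenchymal-like cells and in 5 subclasses (panels). The subclasses have at least 30 cells in each library, with the Cstdc4-led cells left out. Bars are 95% counting intervals, dashed lines lie at 1.5-fold, and orange points are past it. Lum is past the line in 3 of the 5 subclasses, and the osteoblast-like axis is wider for Prelp.

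Ratios were read in 5 subclasses with at least 30 cells in each library. The Cstdc4-led cells (33, 31) also met this minimum but were left out for their neutrophil genes. Among the 5, Lum was past 1.5-fold in the 3 with the lower ND levels and not in the rest. In H19 tenocyte-like cells it was 359 UPM (358 UMIs) in ND and 764 UPM (1016 UMIs) in HFD, 2.12-fold (1.88 to 2.4), and the share of cells with a Lum UMI after thinning was 11.4% (5.59 to 19.9) and 24.6% (17.2 to 33.2). In Pi16 fibroblast-like cells the ratio was 1.89-fold (1.68 to 2.14), with thinned shares of 17.6% (10.4 to 27.0) and 40.7% (31.4 to 50.6). Neutrophil markers stood at 2360 UPM in ND and 904 UPM in HFD in these cells, at 2350 and 887 UPM in the Inmt-led cells and at 1470 and 2020 UPM in H19 tenocyte-like cells, and their part in the ratios of Lum was not tested. In the Inmt-led cells it was 1.57-fold (1.42 to 1.74), and 1.49-fold without the cell of the most Lum UMIs in each library. In Col15a1 fibroblast-like cells it was 1.19-fold (1.1 to 1.29) and in osteoblast-like cells 1.03-fold (0.985 to 1.08). The thinned share was 53.8% and 54.8% in the Inmt-led cells, with overlapping intervals. Whether the ratio differs between subclasses was not tested.

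**Figure D5:**
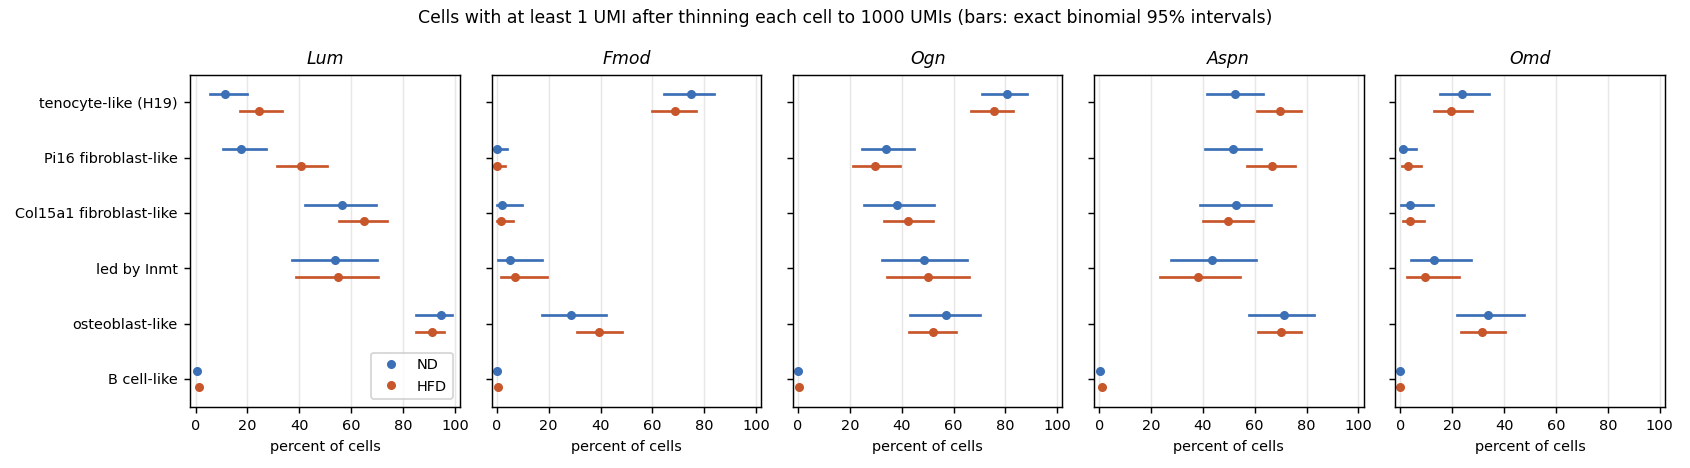
Percent of cells with at least 1 UMI of a gene after thinning each cell to 1000 UMIs, in 5 stromal subclasses and in B cell-like cells, ND in blue and HFD in orange, with exact binomial 95% intervals. For Lum the Pi16 fibroblast-like intervals do not overlap between libraries, whereas B cell-like cells lie at 0.596% and 1.31%.

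The other members past 1.5-fold in a subclass were Fmod, Omd, Prelp and Aspn. Of the 8 members with at least 50 UMIs in H19 tenocyte-like cells, 1 was higher (Lum) and 0 lower, where 6.68% of all genes were past 1.5-fold higher and 4.5% lower. In Pi16 fibroblast-like cells 2 of 8 were higher, Lum and Omd, and 0 lower, beside 5.83% and 4.69% of all genes. Omd rested there on 16 and 38 UMIs (2.17-fold, 1.2 to 4.25), reached the minimum of 50 UMIs only through HFD and is given as a value. In the Inmt-led cells 2 of 8 were higher, Lum and Fmod, and 0 lower, beside 7.7% and 6.9%. Fmod had 37 UMIs in ND and 120 in HFD (3.22-fold), but 1 HFD cell held 84 of the 120, and without the highest cell of each library the interval of the log2 ratio (-0.09 to 1.55) included 0. Fmod too reached the minimum of 50 UMIs there only through HFD.

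In osteoblast-like cells Fmod and Prelp were past 1.5-fold higher and 0 of 8 members lower, beside 7.98% and 5.49% of all genes. Prelp reached the minimum of 50 UMIs only through HFD, where 1 cell held 52 of 79, and is given as a value. Fmod had 367 UMIs in ND (743 UPM) and 1260 in HFD (1136 UPM), 1.53-fold (1.36 to 1.72), and 1.5-fold without the highest cell of each library. Prelp had 3 and 79 UMIs (10.1-fold, 3.87 to 58.1), and 5.04-fold without the highest cell of each library. Neutrophil markers in these cells stood at 1550 UPM in ND and 6890 UPM in HFD, and their part in these ratios was not tested. Omd was lower in HFD, at 0.729-fold (0.634 to 0.84), as was Ogn at 0.871-fold (0.799 to 0.951), neither past 1.5-fold.

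In Col15a1 fibroblast-like cells 0 of 8 members were past 1.5-fold higher and 1, Aspn, was lower, beside 8.11% and 4.72% of all genes. Aspn was 1460 UPM (781 UMIs) in ND and 893 UPM (1058 UMIs) in HFD, 0.612-fold (0.557 to 0.672), and 0.65-fold without the highest cell of each library. The share of these cells with an Aspn UMI after thinning was 52.7% in ND and 49.5% in HFD, with overlapping intervals. Bgn (1.43-fold, 1.31 to 1.57) and Ogn (1.48-fold, 1.3 to 1.68) were the members nearest to the rule on the higher side there, and Ogn crossed it at 1.51-fold without the highest cell of each library. All 37 Fmod UMIs of the ND cells came from 1 cell, on which the plotted ratio of Fmod there rests. The median log2 ratio over the 8 members with enough UMIs was 0.27 in Col15a1 fibroblast-like, 0.21 in Pi16 fibroblast-like, 0.15 in osteoblast-like, 0.17 in H19 tenocyte-like and 0.37 in Inmt-led cells, where the medians of all genes lay between 0.001 and 0.053. Dcn stayed within 1.12-fold in all 5 subclasses, from 0.961-fold in H19 tenocyte-like to 1.12-fold in osteoblast-like cells.

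Outside the stroma the counts were small. In pericyte/smooth muscle-like cells 3 members had at least 50 UMIs, of which 1, Ogn, was past 1.5-fold higher and 0 lower, beside 6.15% and 7.05% of all genes. Aspn was 1.34-fold (1.13 to 1.61) and Ogn 2.4-fold (1.47 to 4.27) in HFD over ND, the latter on 19 and 82 UMIs, and Bgn was 0.812-fold (0.609 to 1.09). In endothelial-like cells 3 members had enough UMIs, of which 2, Dcn and Bgn, were past 1.5-fold higher and 0 lower, beside 6.01% and 5.24% of all genes. Dcn was 2.83-fold (1.53 to 6.19) on 11 and 62 UMIs, out of 579576 and 1111275 UMIs of all genes. B cell-like cells held 365 Dcn UMIs of 8072656 in ND, 196 of them in 1 cell, and 366 of 7964651 in HFD. Dcn in endothelial-like cells was thus not above this background of free RNA in ND and was near it in HFD. Ogn in pericyte/smooth muscle-like cells and both Dcn and Bgn in endothelial-like cells reached the minimum only through HFD. Bgn was 1.83-fold (1.33 to 2.62) on 46 and 163 UMIs and Prelp 0.825-fold (0.502 to 1.4). Family UMIs in B cell-like cells were more frequent in the HFD library, with Bgn at 5.33 UPM in ND and 11.4 UPM in HFD, and their part in these ratios was not tested. Subtracting the level of B cell-like cells from mesenchymal-like cells left the log2 ratio of Lum at 0.73.

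The genes that build, bind and cut the family were read in mesenchymal-like cells in 6 lists, against the same background of 5.52% and 4.02%. Counts and medians are of the whole class unless a subclass is named, and subclasses could differ from it. Of the enzymes that start and extend chondroitin and dermatan sulfate chains, 20 of 22 had at least 50 UMIs and 0 were past 1.5-fold in either direction, with a median log2 ratio of 0.19. They included Dse, the epimerase that makes dermatan sulfate, with 65.4 UPM in ND and 69.2 UPM in HFD. Of the 10 keratan sulfate enzymes 7 passed, and 1, the sulfotransferase gene Chst2, was higher (24.4 and 39.8 UPM). Chst2 was highest in the Prg4-led cells, with 299 and 520 UPM. These are 6 ND and 14 HFD cells, with 2.65% and 4.35% of the UMIs of the class. The class ratio of Chst2 rests on 117 and 278 UMIs, and the part of these cells in it was not tested.

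Among fibrillar collagens and crosslinking enzymes, the partners of the family, 12 of 13 passed and 0 were past 1.5-fold, with a median of 0.23. Within subclasses the median was 0.3 in Col15a1 fibroblast-like, 0.11 in Inmt-led and 0.01 in osteoblast-like cells. It was -0.12 in Pi16 fibroblast-like and -0.32 in H19 tenocyte-like cells. In the latter 1 of 12 was past 1.5-fold higher and 2 lower, beside 6.68% and 4.5% of all genes. Col15a1 fibroblast-like cells had 2 of 12 higher and 1 lower, beside 8.11% and 4.72%. Col1a1 was nearest, with 4420 UPM in ND and 6570 UPM in HFD, a log2 ratio of 0.57. Of the other leucine-rich repeat genes 5 of 8 passed and 0 were past the rule (median -0.03). They were led by Chad, which encodes the cartilage protein chondroadherin, with 948 and 880 UPM, and by Ecm2 with 155 and 152 UPM. Chad was 2800 and 3150 UPM in H19 tenocyte-like cells.

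The proteinases that cut the family held the largest differences. Of 9 genes with at least 50 UMIs among 10, 2 were higher and 0 lower, with a median of 0.26. Mmp13, the collagenase of bone and cartilage, was 179 UPM in ND and 449 UPM in HFD (log2 ratio 1.32), and Mmp3, stromelysin, 17.8 and 47.4 UPM (1.41). Mmp13 was mostly a gene of osteoblast-like cells, at 1690 UPM in ND and 2690 UPM in HFD. Its level within these cells and their share were both higher in HFD, and the part of each in the class ratio was not tested. Of the growth factors and receptors that bind members, 13 of 15 passed, 2 were higher and 0 lower, with a median of 0.09. In the Inmt-led cells 0 of 7 were higher and 3 lower, beside 7.7% and 6.9% of all genes. In Col15a1 fibroblast-like cells 1 of 9 was higher and 2 lower, beside 8.11% and 4.72%. Pi16 fibroblast-like, osteoblast-like and H19 tenocyte-like cells had 0 lower. Ccn2, a matricellular partner of decorin, was 564 and 1100 UPM (0.96) and Ccn4 14.4 and 29.2 UPM (1.01), while Tgfb1 was 70.2 and 78.5 UPM.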

How the data were processed

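Single-cell suspensions of periosteum were profiled in 1 ND and 1 HFD library. The deposited files are raw UMI counts per gene and cell barcode, which the authors made with Cell Ranger 6.0.1 against mm10, per the submitters' processing notes. The libraries held 6314 (ND, 48558889 UMIs) and 6636 barcodes (HFD, 49940976 UMIs), so that rare transcripts, Kera above all, are the least precise values. Barcodes with more than 500 and fewer than 8000 genes and under 20% mitochondrial UMIs were kept.

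Counts were normalised with SCTransform in Seurat 5.3.0 (3000 variable features, 30 principal components, Louvain resolution 0.5, and 1.2 for subclusters), leaving out the 10 members and 8 relatives. A cluster was named when at least 3 markers of a class were detected, each with at least 20 UMIs and at 2 times the median of the clusters after adding 10 UPM, and when its 10 leading genes did not go against the name. This rule and the subcluster resolution were set after the clusters were seen. One cluster of 57 cells stayed unnamed and entered no class. The automatic Scrublet threshold marked 10 ND and 11 HFD cells and had not worked, so a score over 0.25 (109 and 85 cells) was used in an alternative and these cells were otherwise kept.

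UPM carried exact Poisson intervals and shares exact Clopper-Pearson intervals, at 95%. The upper limit of a UPM with a count of 0 was set at 3 UMIs. HFD over ND ratios used counts plus 0.5, genes with at least 50 UMIs over both libraries, a conditional binomial interval and a 1.5-fold rule. Script steps were tested on simulated data. With 1 library per diet no p-value was computed. Named genes were the 10 members, the genes of each related list past 1.5-fold (at most the 3 highest and 3 lowest), those with the highest correlation to a member, of at most 3 each, and markers. Dse, Chad, Ecm2, Col1a1 and Tgfb1 were added after their values were seen. Profiles were compared over genes with at least 200 UMIs. The members and lists were chosen with earlier results of these data known. Promoters came from RefSeq (GRCm38.p6). Intervals and limits cover counting error only. For 1 subcluster the leading gene is not reported here.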

Additional observations from a re-analysis of the deposited data

Results flagged for a closer look

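Aspn and Omd had ratios of opposite direction in different subclasses of mesenchymal-like cells. The log2 ratio of HFD over ND for Aspn was 0.41 in H19 tenocyte-like cells and -0.71 in Col15a1 fibroblast-like cells. For Omd it was 1.12 in Pi16 fibroblast-like cells, on 16 and 38 UMIs, and -0.46 in osteoblast-like cells. With 1 library per diet, neither difference between subclasses was tested.

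Barcodes outside the cell filter, which no comparison used, also held the family. Its UMIs were 0.0413% of all UMIs in 285 such ND barcodes (187 of 452376) and 0.126% in 412 HFD barcodes (668 of 529088), above the limit that a count of 0 allows and below the 0.25% and 0.401% of the kept cells.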

How the results depend on the processing

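No paired analysis was possible because the mice of a diet were pooled in 1 library and no column carries a replicate number. For the same reason no replicate could be left out in turn. Of 17 alternatives, 2 were chosen after seeing the data: leaving out the Hmcn2-led and Cstdc4-led subclusters, and leaving out the cell of the most UMIs in each library. The share of family UMIs in mesenchymal-like cells (96.8% ND, 96.62% HFD) was 95.98% and 94.89% with a minimum of 200 detected genes, 97.94% and 97.46% with log-normalised clustering, 96.1% and 95.21% after thinning, and 98.76% and 98.18% after subtracting the level of B cell-like cells. In HFD it was 96.74% without Scrublet doublets and 97.01% with the members kept in the clustering. The number of members past 1.5-fold higher in HFD was 0 with equal subclass weights, and 2 under both added alternatives, Kera being the second. Kera reached the minimum of UMIs under both of these only through HFD. The number of members was 4 under the less strict fold rule tried and 0 under a 2-fold rule. No member was past the rule on the lower side under any alternative run. Lum was past 1.5-fold in 12 of 13 alternatives that give a ratio, with log2 ratios from 0.34 to 0.76, whereas Omd, near 0, changed sign in 5 of 13 and was at -0.25 with equal weights. Dcn was at -0.00 after thinning, and Kera had too few UMIs there for a value. Thinning also took Bgn from 0.43 to 0.20 and Podn from 0.37 to 0.13. It took Fmod from 0.33 to 0.42 and Prelp from 0.13 to 0.21. Equal weights took Fmod to 0.19 and Aspn from 0.23 to 0.09, whereas Kera went from 0.31 to 0.57 and Dcn from 0.09 to 0.11. Equal weights hold the makeup of the class fixed, and the causes of these shifts were not tested.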
